A study of Mus musculus with 27 samples.

Results

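The comparison described here is between 2 RNA libraries of mouse embryonic stem cells kept in triptolide, one taken 6 h and one 3 h after release into S phase. These are 2 of the 27 samples of the series. They were chosen by their titles, and the transcripts kept are the 10926 of 137271 listed that had a mean of 10 or more CPM (estimated reads per 1000000 reads of the library) over the 4 RNA libraries. Those 4 libraries are untreated cells at 3 h, cells in 1 µM triptolide at 3 h, untreated cells at 6 h and cells in 1 µM triptolide at 6 h, with 1 library each. All are polyadenylated RNA from the KH2 embryonic stem cell line with the genotype KH2:13 Flag-BAP-H3 tags (histone H3 genes tagged for biotin labelling), grown with LIF, a MEK inhibitor (1 µM) and a GSK3 inhibitor (3 µM). The labels' protocol describes a thymidine synchronisation before release. The labels do not say when triptolide was added, so the time in the drug at each harvest is not known. The series is about where nucleosomes go when active and repressed chromatin is replicated, and the labels state no aim for the RNA libraries.

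Triptolide blocks transcription initiation by RNA polymerase II through XPB, a subunit of the initiation factor TFIIH. When new mRNA is no longer made, what remains of each mRNA is set by its decay, which usually starts with shortening of the poly(A) tail and goes on with decapping or digestion from the 3′ end. Messages of regulators such as transcription factors are often short-lived and messages of metabolic enzymes and ribosomal proteins long-lived. A library measures shares of the RNA present, so a message that is no longer made but decays more slowly than the others takes a larger share. Which transcripts below are made by RNA polymerase II could not be told, since their genes could not be named. No spike-in values were used here: a loss common to all transcripts would not be seen, and "lower" and "higher" below mean a share of the reads.

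The library totals were 27245319 estimated reads with triptolide at 3 h and 19148022 at 6 h, against 27446243 and 24916091 untreated. The kept transcripts held 91.5% of the reads with triptolide at 3 h and 91.8% at 6 h. A kept transcript had a median of 779.9 estimated reads in the first library and 465.0 in the second. Of the 10926, 1 had an estimate that rounds to 0 with triptolide at 3 h and 1 at 6 h; a count of 0 was set to 3 reads, which makes such a ratio a bound. The files give transcript identifiers only, and 0 of 137271 occur in the gene tables used here. Genes are therefore not named, no sequence is shown, and the defining markers of embryonic stem cells could not be checked. With 1 library a side there is no replicate error and no p-value. The 95% intervals hold counting error alone or, for medians, the scatter of transcripts. Those of percentages of transcripts treat the transcripts as independent draws and hold no error between libraries. With no molecular identifiers, reads may be copies of 1 molecule.

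Between the triptolide libraries of 3 h and 6 h after release, more transcripts passed 2-fold downward than upward. Of the 10926 kept transcripts, 1400 (12.8%, exact binomial interval 12.2% to 13.5%) were at least 2-fold lower at 6 h. At least 2-fold higher were 232 (2.12%, interval 1.86% to 2.41%). In untreated cells over the same hours, 62 (0.567%) of them went down by that much and 68 (0.622%) went up. Lower transcripts were thus 85.8% of those past 2-fold with triptolide and 47.7% without. The drug pair gave 75.4% with TMM factors, 74.5% with DESeq2 size factors and 92.2% in TPM, so the lower side was the larger under each scaling. Without a limit of size and with library totals, the counting interval of the ratio lay wholly below 0 in 5824 kept transcripts with triptolide. It lay above 0 in 2692 and held 0 in 2410. Untreated, these were 3308, 2956 and 4662. This balance depends on the scaling: the share of kept transcripts with a drug ratio above 0 was 34.8% with library totals. That share was 49.0% with TMM factors, 49.8% with size factors and 21.2% in TPM. Over the 32206 transcripts with a mean of 1 or more CPM, 17.1% were lower and 7.76% higher with triptolide, against 3.86% and 4.29% untreated.

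The distribution was wider with the drug, more so on the lower side. With triptolide the 5th percentile of the log2 ratios of 6 h over 3 h was -1.41 and the 95th was 0.57; untreated, they were -0.48 and 0.45. The lower end thus moved further than the upper end. The 25th percentile, the median and the 75th percentile were -0.64, -0.20 and 0.13 with the drug. Untreated they were -0.17, -0.0095 and 0.14. The most frequent bin of 0.1 was the same in both, from -0.1 to 0, with 868 transcripts under triptolide and 1868 untreated. The position of zero depends on the scaling: TMM factors raised all drug ratios by 0.18 and size factors by 0.19, which took the median to -0.01 and -0.0025, and in TPM it was -0.38.

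**Figure D1:**
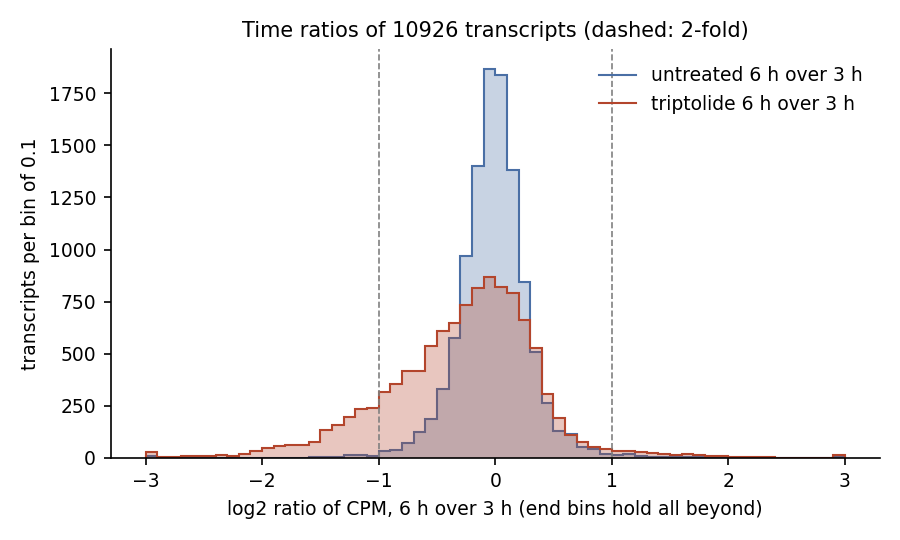
Numbers of transcripts (vertical axis, per bin of 0.1) by the log2 ratio of CPM at 6 h over 3 h (horizontal axis), for the triptolide pair and the untreated pair of libraries, scaled by library totals. Both histograms peak between -0.1 and 0, and the triptolide histogram has the longer lower tail, with 1400 transcripts at or below the 2-fold line against 62 untreated.

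Lower transcripts outnumbered higher ones at smaller and larger limits too. At least 1.5-fold lower were 2995 transcripts (27.4%) and at least 1.5-fold higher 530 (4.85%), against 362 (3.31%) and 314 (2.87%) untreated. Past 4-fold there were 135 lower and 32 higher with triptolide, and 15 and 5 untreated. Past 8-fold there were 21 lower and 11 higher, and 7 and 3 untreated. For 850 transcripts the whole counting interval lay beyond 2-fold lower, and for 174 beyond 2-fold higher; untreated, these were 35 and 41. All 135 and all 32 transcripts past 4-fold with the drug had estimates that were not whole numbers in all 4 libraries. That happens when reads that fit several transcripts are divided among them. Of all kept transcripts only 1.13% were whole, so this is near the share over all. None of the largest ratios could be read free of that division.

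The transcripts that were lower had untreated medians close to those of all kept transcripts. The 1400 had a median of 28.9 CPM untreated at 3 h and 28.2 CPM untreated at 6 h, beside 30.6 and 30.1 CPM over all kept transcripts. With triptolide they had a median of 21.4 CPM at 3 h and 8.09 CPM at 6 h. Together they held 6.73% of all reads untreated at 3 h, 6.60% untreated at 6 h, 4.66% with triptolide at 3 h and 1.83% with triptolide at 6 h, each with an exact binomial interval narrower than 0.02 percentage points. The last 2 values follow from how the group was chosen. The first 2 did not enter the ratio, but they entered the filter on the mean of the 4 libraries. A transcript low at 6 h in the drug could be kept through its other values. Their median log2 ratio of triptolide over untreated was -0.44 at 3 h (quartiles -0.75 and -0.17) and -1.78 at 6 h (quartiles -2.26 and -1.36). Over all kept transcripts these medians were -0.03 and -0.22. Each of the 2 drug ratios shares 1 library with the ratio that chose the group, so they are given side by side and no overlap is drawn from them. Their untreated ratio of 6 h over 3 h, which shares none, had a median of -0.03.

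The 232 transcripts that were higher had a median of 10.4 CPM untreated at 3 h, 11.9 CPM untreated at 6 h, 12.3 CPM with triptolide at 3 h and 37.2 CPM with triptolide at 6 h. Their share of all reads was 0.499%, 0.529%, 0.556% and 1.60% in that order. The filter used the mean over all 4 libraries, so a transcript could be kept through its high value in the 6 h triptolide library alone. With the filter on the 2 untreated libraries only, 138 of 11276 were higher and 1709 lower. Those 138 had a median of 19.4 CPM untreated at 3 h, against 29.4 CPM over the 11276.

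Transcripts that moved by less than 2-fold held more of the reads at 6 h. These 9294 took 86.3% of reads with triptolide at 3 h and 88.4% at 6 h, and 83.7% untreated at both times. The group was chosen by the same drug ratio, so its gain follows in part from that choice. The gain was in the most abundant of them: those under 500 CPM, 9084 in number, held 51.1% at 3 h and 49.2% at 6 h. The 10 transcripts with the highest mean held 13.7% and 14.6% of reads with triptolide at 3 h and 6 h, and 11.7% and 11.3% untreated. Of these 10, 9 were higher at 6 h under the drug and 1 was lower, with log2 ratios from -0.02 to 0.47 and a median of 0.13. Of all kept transcripts 34.8% were above 0. Of the 210 at 500 CPM or more, 25.7% were below 0 with library totals. Both the 10 and the 210 were chosen by a mean that includes the 2 triptolide libraries, which favours transcripts high at 6 h in the drug. The signs also depend on the scaling: all 10 were higher with TMM factors and with size factors, and 4 were higher and 6 lower in TPM. The median log2 ratio of the 210 was 0.21 with library totals, 0.39 with TMM factors, 0.40 with size factors and 0.02 in TPM. The highest transcript of all (1849 nt) had 50368 CPM untreated at 3 h, 50951 CPM untreated at 6 h, 59193 CPM with triptolide at 3 h and 58386 CPM with triptolide at 6 h. It was higher in both triptolide libraries than in both untreated ones and moved by -0.02 on the log2 scale between the drug libraries. The third in rank (1545 nt) had 11263 and 9191 CPM untreated and 14421 and 18418 CPM with triptolide at 3 h and 6 h. It was lower at 6 h than at 3 h untreated (log2 -0.29) and higher at 6 h than at 3 h with the drug (log2 0.35, interval 0.35 to 0.36).

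Abundance went with the size of the change, but the mean that set the classes included both triptolide libraries. A transcript low at 6 h in the drug was thereby moved toward a lower class, and a high one toward a higher class. How much of the order below comes from this was not tested. At a mean of 10 to 20 CPM, the triptolide pair had 648 of 3771 transcripts (17.2%) at or past 2-fold lower and 125 (3.31%) at or past 2-fold higher. From 20 to 50 CPM, 513 of 3774 (13.6%) were lower and 68 (1.80%) higher. From 50 to 100 CPM these were 163 (9.13%) and 26 (1.46%) of 1785, and from 100 to 500 CPM 76 (5.48%) and 13 (0.938%) of 1386. In the 210 transcripts at 500 CPM or more, none was past 2-fold in either direction (exact binomial interval over transcripts up to 1.74% each way). In each class the share lower stood above the untreated share, which ran from 0.216% to 1.09%, except at 500 CPM or more, where 1 of 210 was lower untreated. The median log2 ratio went from -0.31 at 10 to 20 CPM through -0.24, -0.15 and -0.02 to 0.21 at 500 CPM or more. The signs of the middle classes turn with the scaling: with TMM factors the medians from 50 to 100 and from 100 to 500 CPM were 0.03 and 0.16, and in TPM the one from 50 to 100 CPM was -0.34 and that at 500 CPM or more 0.02. The most abundant class was also the shortest, with a median length of 1360 nt against 2649 to 2731 nt in the 3 classes under 100 CPM.

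**Figure D2:**
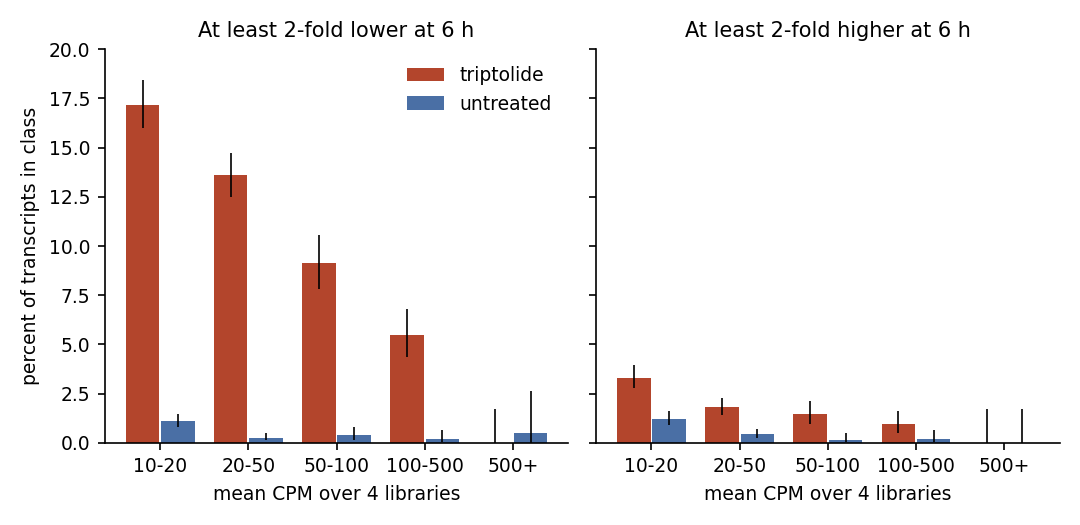
Percent of transcripts at least 2-fold lower (left) and higher (right) at 6 h than at 3 h, by mean CPM over the 4 libraries, for the triptolide and the untreated pair; lines are exact 95% binomial intervals. The triptolide bars for lower transcripts go down from 17.2% to 5.48% and to none of 210 at 500 CPM or more, and the untreated bars stay at or under 1.22%.

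Long transcripts lost more share than short ones between the 3 h and 6 h drug libraries. In the class of 8000 nt or more, the 2-fold limit was passed by 97 of 434 transcripts (22.4%) downward and by 3 (0.691%) upward. From 4000 to 8000 nt these were 491 (20.5%) and 33 (1.38%) of 2397. From 2000 to 4000 nt, 554 of 4057 (13.7%) were lower and 76 (1.87%) higher, close to the 12.8% and 2.12% of all kept transcripts. From 1000 to 2000 nt, 181 of 2406 (7.52%) were lower and 41 (1.70%) higher, and from 500 to 1000 nt 65 (5.01%) and 46 (3.54%) of 1298. Under 500 nt the balance turned, with 12 of 334 (3.59%) lower and 33 (9.88%) higher. Of the 1400 lower transcripts 42.0% were 4000 nt or longer, against 25.9% of all kept transcripts and 15.5% of the 232 higher ones.

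The class medians were lower with each step in length. Relative to the median of all kept transcripts, which takes out any single scaling factor, they were 0.46 under 500 nt, 0.31 up to 1000 nt, 0.15 up to 2000 nt, -0.05 up to 4000 nt, -0.24 up to 8000 nt and -0.39 beyond that. Untreated, these classes lay between -0.05 and 0.01. The shortest and the longest class differed by 0.84 in log2 CPM and by 0.81 in log2(TPM + 0.1). Without this centring, the median from 1000 to 2000 nt was -0.05 with library totals and 0.13 with TMM factors, and that from 500 to 1000 nt was 0.12 with library totals and -0.07 in TPM. The same classes had medians of triptolide over untreated of 0.12, 0.07, 0.01, -0.06, -0.11 and -0.12 at 3 h, and of 0.42, 0.18, -0.01, -0.30, -0.52 and -0.68 at 6 h, from the shortest to the longest. The gap between length and effective length in the files implies a mean fragment of 85.9 nt with triptolide at 3 h and 88.7 nt at 6 h, and 83.8 and 84.8 nt untreated. The fragments were 2.73 nt longer at 6 h in the drug and 0.99 nt longer untreated, and their part in the length result was not tested.

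**Figure D3:**
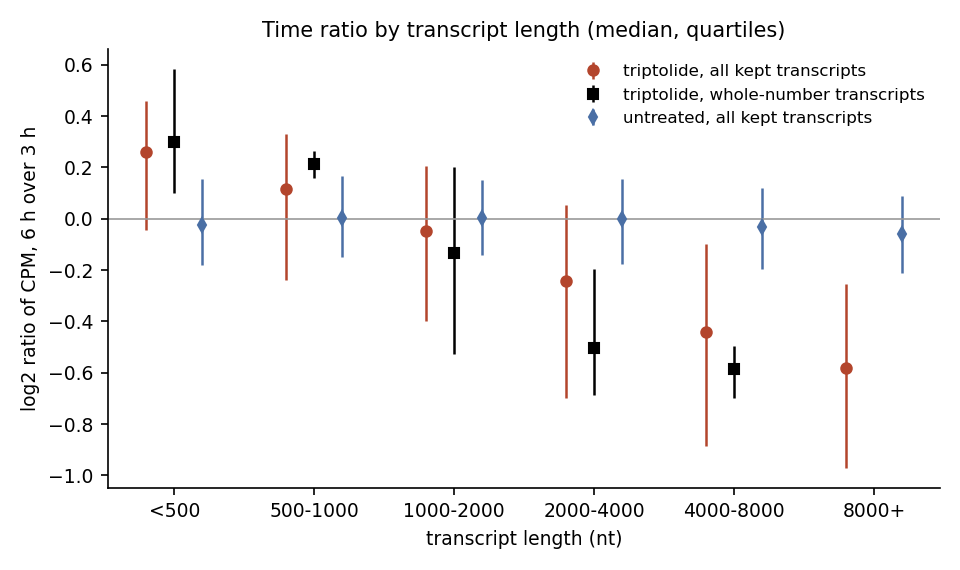
Median log2 ratio of CPM at 6 h over 3 h by transcript length, with bars from the 25th to the 75th percentile, for all kept transcripts of the triptolide pair, for those with whole-number estimates, and for all kept transcripts of the untreated pair. With library totals the triptolide medians go down from 0.26 under 500 nt to -0.58 at 8000 nt or more, and those from 500 to 2000 nt change sign under other scalings; the untreated medians stay between -0.06 and 0.0045.

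The order by length held within each class of abundance. At 10 to 20 CPM the median log2 ratio was -0.02 in 590 transcripts under 1000 nt, -0.29 in 2185 of 1000 to 4000 nt and -0.51 in 996 of 4000 nt or more. At 100 CPM or more it was 0.30 in 326 short transcripts (interval 0.27 to 0.32), 0.0028 in 968 of middle length (interval -0.03 to 0.02) and -0.26 in 302 long ones (interval -0.32 to -0.21). The 2 classes between had medians of 0.09, -0.21 and -0.49 (20 to 50 CPM) and of 0.26, -0.12 and -0.43 (50 to 100 CPM). The step from short to long was thus 0.49 at 10 to 20 CPM and 0.56 at 100 CPM or more. The step from scarce to abundant was 0.32 among short and 0.25 among long transcripts, with classes again set partly by the triptolide libraries. A scaling with 1 factor per library (library totals, TMM or size factors) moves all of these medians by 1 amount and can turn a sign near zero. In TPM, which also uses effective lengths, the step from short to long was 0.47 at 10 to 20 CPM, 0.57 at 20 to 50 CPM, 0.69 at 50 to 100 CPM and 0.56 at 100 CPM or more. In the long transcripts at 100 CPM or more, 33 of 302 (10.9%) were at least 2-fold lower and none higher. In the short ones of that abundance, 2 of 326 (0.613%) were lower and 13 (3.99%) higher.

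**Figure D4:**
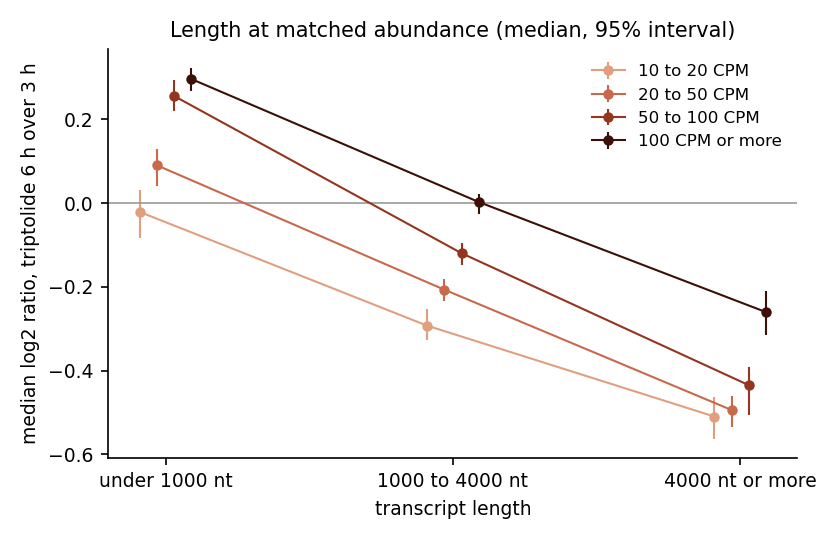
Median log2 ratio of triptolide 6 h over 3 h (library totals) for 3 classes of transcript length in 4 classes of mean CPM, with 95% order-statistic intervals over transcripts. Each line goes down with length, from -0.02 to -0.51 in the scarcest and from 0.30 to -0.26 in the most abundant class; the heights depend on the scaling.

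In 123 of the 10926 (1.13%) the estimate was a whole number in all 4 libraries, within 1e-06 reads. This was taken as a sign that no reads were divided with other transcripts. Among these 123, 30 (24.4%) were at least 1.5-fold lower at 6 h in the drug and 2 (1.63%) higher, beside 27.4% and 4.85% of all kept transcripts. At least 2-fold lower were 9 (7.32%) and higher 1 (0.813%), beside 12.8% and 2.12%. Past 4-fold there was none. Their 5th percentile was -1.19 and their 95th 0.37 with the drug; untreated, these were -0.51 and 0.24. Their medians by length were 0.30 under 500 nt (9 transcripts), 0.21 up to 1000 nt (22), -0.13 up to 2000 nt (46), -0.50 up to 4000 nt (37) and -0.58 up to 8000 nt (9). The difference of the drug and the untreated time ratio had a median of -0.0085 in the 123 (interval -0.23 to 0.11) and of -0.20 in all kept transcripts (interval -0.21 to -0.19).

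The 9 whole-number transcripts at least 2-fold lower are given with their values in all 4 libraries. They had from 22.2 to 85.5 CPM untreated at 3 h (median 49.2) and from 17.2 to 74.1 CPM untreated at 6 h (median 42.3). With triptolide they had from 14.0 to 60.7 CPM at 3 h (median 24.8) and from 4.39 to 28.0 CPM at 6 h (median 9.97). In all 9 the triptolide library at 3 h was below both untreated libraries, as it was in 43 of the 123 (35.0%) and in 42.9% of all kept transcripts, and the one at 6 h was the lowest of the 4. Both triptolide libraries entered the choice of these 9. Their fall from 3 h to 6 h in the drug is that choice itself, and the share of all kept transcripts that were lowest at 6 h in the drug was not counted. Their untreated log2 ratios of 6 h over 3 h lay between -0.37 and 0.23. For 5 of the 9 the counting interval lay wholly beyond 2-fold. Over all kept transcripts this was so for 850, beside 1400 at least 2-fold lower, which is a similar share.

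**Figure D5:**
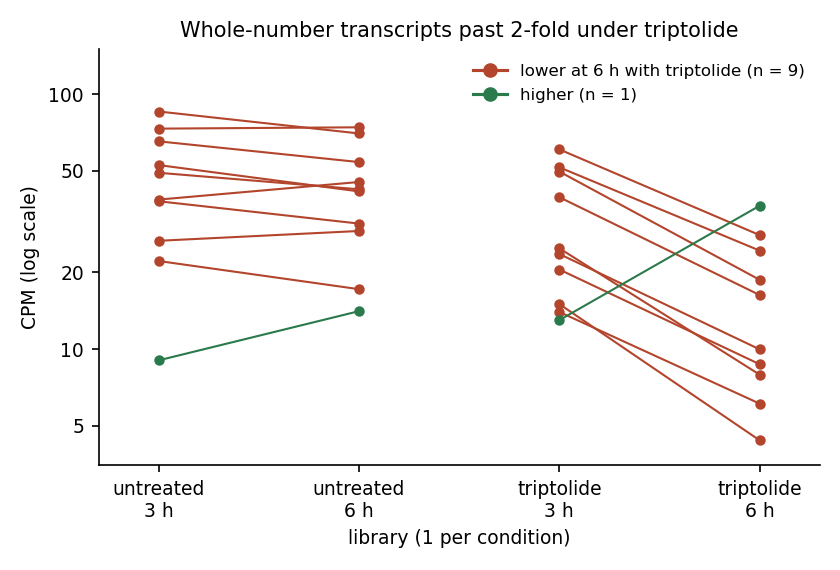
CPM (log axis) in each of the 4 libraries for the 10 whole-number transcripts past 2-fold between the triptolide libraries; each line joins 3 h and 6 h of 1 transcript within a treatment. The 9 lower transcripts lie between 14.0 and 60.7 CPM with triptolide at 3 h and between 4.39 and 28.0 CPM at 6 h, and the 1 higher transcript goes from 13.0 to 36.5 CPM.

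Among whole-number transcripts, those with the counting interval farthest from no change are given by identifier, 2 in each direction. ENSMUST00000172371.1 (3729 nt) had 22.2 CPM untreated at 3 h, 17.2 CPM untreated at 6 h, 15.0 CPM with triptolide at 3 h and 4.39 CPM with triptolide at 6 h. In the drug its 6 h level was 3.42-fold below its 3 h level (log2 ratio -1.77, counting interval -2.13 to -1.43, from 84 and 409 reads). Untreated, its log2 ratio was -0.37, and the 2 time ratios differed by -1.41 (interval -1.79 to -1.03). Both triptolide libraries were below both untreated ones. ENSMUST00000052140.2 (2810 nt) had 49.2 CPM untreated at 3 h, 42.3 CPM untreated at 6 h, 24.8 CPM with triptolide at 3 h and 7.94 CPM with triptolide at 6 h. Its log2 time ratio in the drug was -1.65 (interval -1.91 to -1.39), a 3.13-fold difference, and -0.22 untreated. Here too the drug libraries were the 2 lowest. Both transcripts are among the 9 above, so their low value at 6 h in the drug follows from the choice. The triptolide library at 3 h was below both untreated ones in 42.9% of all kept transcripts.

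The 2 transcripts that were higher are very short, under the implied mean fragment length of every library. ENSMUST00000175257.1 (74 nt) had 9.04 CPM untreated at 3 h, 14.1 CPM untreated at 6 h, 13.0 CPM with triptolide at 3 h and 36.5 CPM with triptolide at 6 h. It was 2.81-fold higher at 6 h in the drug (log2 ratio 1.49, interval 1.30 to 1.68), and it was also higher with time untreated (log2 ratio 0.64, interval 0.40 to 0.88). The triptolide library at 3 h lay between the untreated ones. ENSMUST00000082403.1 (69 nt) had 67.3 CPM untreated at 3 h, 54.4 CPM untreated at 6 h, 78.5 CPM with triptolide at 3 h and 117.6 CPM with triptolide at 6 h. Its drug ratio (log2 0.58, interval 0.50 to 0.67) was short of 2-fold, and its untreated ratio went the other way (log2 -0.31, interval -0.41 to -0.20). How far fragment length and size selection set the counts of RNAs this short was not tested.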

How the data were processed

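Transcript tables of 4 RNA libraries were used; the other 23 samples (chromatin) were not analysed here. Per the file headers, the tables have the column layout of Salmon; version, transcript annotation and strandedness are not given in the labels or file headers. The submitters' processing notes list the builds mm10 and dm3 and the tools SAMtools 1.0.6, Bowtie 1.0.0 and FastQC 0.11.4 for all samples alike, without saying which were applied to RNA. The deposited estimated counts are reads per transcript, not scaled and not always whole. The deposited TPM values are these divided by effective length and set to a common total.

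CPM was the estimated count over the library sum. The 10926 transcripts with a mean of 10 or more CPM over the 4 libraries were kept; the members, classes and lists were chosen with earlier results of these data known. Log2 ratios of 6 h over 3 h were formed with library totals, with 0 set to 3 reads and a size rule of 2-fold. Transcripts with a mean just above the filter (10 to 11 CPM) had a median ratio of -0.37 and those just below it (9 to 10 CPM) -0.31. Counting intervals are exact conditional binomial (Clopper-Pearson) at 95%, from rounded counts; those of medians are order-statistic intervals, and those of differences of ratios a normal approximation. The procedure was tested on simulated counts. Planned gene lists, marker checks and sums per gene were not run, since 0 of 137271 identifiers could be named.

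Transcripts were named by rule: whole-number estimates in all 4 libraries, at least 100 reads in the higher triptolide library, the same direction under 3 scalings, ranked by the interval bound nearest no change, 2 in each direction. Alternatives were TMM (edgeR 4.0.16) and DESeq2 1.42.0 size factors from transcripts with a mean of 1 or more CPM, totals without the 10 highest transcripts, log2(TPM + 0.1), other filters and limits, whole-number transcripts, and thinning to the smallest total. Python 3.11.15, numpy 2.4.6, pandas 2.3.3 and SciPy 1.17.1 were used.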

Additional observations from a re-analysis of the deposited data

Results flagged for a closer look

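The transcript ENSMUST00000082403.1 (69 nt) had time ratios of opposite sign with and without the drug, log2 0.58 under triptolide and -0.31 untreated; the difference was 0.89 (normal-approximation counting interval 0.76 to 1.02). With 1 library each it was not tested beyond counting error.

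Effective lengths, which the CPM ratios did not use, implied a mean fragment of 88.7 nt in the triptolide library at 6 h, above both untreated libraries (83.8 and 84.8 nt).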

How the results depend on the processing

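No paired analysis was possible because each condition has 1 library and the labels give all 4 the same number. With 1 library a side, no library was left out, and sums per gene were not run for lack of gene names. The whole-number medians of the length classes and of the difference of time ratios, the factors from all transcripts, and the scalings of the 10 highest transcripts and of the length classes within abundance classes, were added after the data were seen; the cause of the changes below was not tested.

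The median log2 ratio of triptolide 6 h over 3 h, -0.20 with library totals, was -0.0127 with TMM, -0.0025 with size factors, -0.18 without the 10 highest transcripts, -0.38 in TPM, -0.13 without the CPM filter, 0.0105 (reversed in sign) at a mean of 100 or more CPM, -0.24 with the filter on untreated libraries and -0.14 in whole-number transcripts. With factors from all transcripts it was -0.16 (TMM) and -0.13 (size factors). The counts of 1400 lower and 232 higher became 10265 and 6817 of 54180 without the filter, 5511 and 2500 at 1 or more CPM, 76 and 13 at 100 or more CPM, 9 and 1 in whole-number transcripts, 2995 and 530 at 1.5-fold and 135 and 32 at 4-fold. With intervals wholly beyond 2-fold, 850 were lower, and with the filter on untreated libraries 138 were higher. Lower counts stayed within 1.5 times under TMM (969), size factors (940) and TPM (1923). The higher counts there were 316, 322 and 163. Lower transcripts outnumbered higher ones in every setting run.

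The median difference of drug and untreated time ratios, -0.20, was -0.0244 with TMM, -0.0143 with size factors, -0.40 in TPM and -0.0085 in whole-number transcripts. Length class medians, from shortest to longest, were 0.44, 0.30, 0.13, -0.0607, -0.26 and -0.40 with TMM, 0.45, 0.31, 0.14, -0.0504, -0.25 and -0.39 with size factors, and 0.0844, -0.0667, -0.23, -0.42, -0.61 and -0.73 in TPM. In whole-number transcripts, medians from 500 to 8000 nt were 0.21, -0.13, -0.50 and -0.58. The median of the 10 highest transcripts, 0.13, turned to -0.0520 in TPM; TMM gave 0.32 and size factors 0.33. For the named transcripts, the same direction under TMM and size factors was a condition of the choice.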

Other observations

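Below the filter the picture was wider and less one-sided. Of the 21280 transcripts with a mean of 1 to 10 CPM, 4111 (19.3%) were lower between the triptolide libraries and 2268 (10.7%) higher, by 2-fold or more. In the untreated pair 1182 (5.55%) and 1313 (6.17%) were. The quartiles of the drug ratio were -0.80 and 0.40 on the log2 scale.

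Few transcripts crossed from clear presence to near absence. From 10 or more CPM with triptolide at 3 h, 9 transcripts went to under 1 CPM at 6 h, and 7 went the other way; untreated, these were 3 and 1. None of these had whole-number estimates in all 4 libraries, which only 1.13% of all kept transcripts had. The number of transcripts at 10 or more CPM was 10842 with triptolide at 3 h and 9858 at 6 h, against 11293 and 11238 untreated. All these numbers use library totals and were not counted under other scalings. TMM and size factors raised every drug ratio of 6 h over 3 h by 0.18 and 0.19 on the log2 scale.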
